A study of Mus musculus with 12 samples.

Results

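The cytosolic ribosomal protein genes encode the protein parts of the ribosomes that work outside mitochondria. They were chosen by gene symbol: Rpl or Rps followed by a subunit number and an optional suffix letter, Rplp0 to Rplp2, and Rpsa, without the Rps6k kinases and without pseudogenes. The rule found 83 of the 20632 genes in the files, 52 of the large subunit and 31 of the small subunit. Messenger RNA ends were sequenced (3′ RNA-seq) from white fat around the uterus of 12 mice, all pregnant at E17.5, in 3 groups of 4. KO Treg mice carried the label Tnfrsf11a (Rank) with Foxn1 Cre + (knockout) and were given the treatment labelled Treg. KO vehicle mice carried the same knockout label and were given vehicle. WT vehicle mice carried the label Foxn1 Cre- (wild type) for the same gene and were given vehicle. Foxn1 is a transcription factor of epithelia, among them that of the thymus, so a Cre driven by it is not expected to act in fat cells. The labels give no strain or age. Each library was taken as 1 animal.

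Ribosomal proteins are made in near-equal numbers per ribosome, and their genes are among the most expressed in nearly all cells. The large subunit joins amino acids and the small subunit reads the messenger RNA. Most ribosomal protein messenger RNAs in mammals begin with a run of pyrimidines, the 5′ terminal oligopyrimidine (TOP) tract, through which the mTOR kinase and the protein LARP1 control their translation. Cells also adjust the family as a whole to growth signals, nutrients and stress, and mutations in some members cause inherited anaemias in humans.

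The starts of 9 members are shown because this tract is the sequence feature that members are known to share. Each line gives 10 bases before and 20 bases from the RefSeq start on GRCm38.p6, on the strand of the gene, with capitals for a C followed by at least 4 pyrimidines that begins within 5 bases of the start.
Rpl13a: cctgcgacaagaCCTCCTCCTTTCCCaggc
Rpl27a: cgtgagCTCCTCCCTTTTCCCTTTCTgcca
Rpl12: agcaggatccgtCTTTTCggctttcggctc
Rps18: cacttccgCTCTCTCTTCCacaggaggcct
Rps6: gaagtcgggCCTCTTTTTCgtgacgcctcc
Rps9: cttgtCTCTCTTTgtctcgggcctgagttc
Rplp0: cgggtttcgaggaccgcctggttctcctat
Rpl22: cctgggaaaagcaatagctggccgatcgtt
Rpl7l1: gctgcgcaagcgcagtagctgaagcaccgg
These windows lie at chr7:45128726-45128755 (Rpl13a, minus strand), chr7:109519185-109519214 (Rpl27a, plus), chr2:32961702-32961731 (Rpl12, plus), chr17:33955646-33955675 (Rps18, minus) and chr4:86857348-86857377 (Rps6, minus). The others lie at chr7:3704031-3704060 (Rps9, plus), chr5:115559457-115559486 (Rplp0, plus), chr4:152325716-152325745 (Rpl22, plus) and chr17:46782637-46782666 (Rpl7l1, minus). The tract was 14 bases long in Rpl13a and 20 bases long in Rpl27a, against 6 bases in Rpl12. The last 3 sequences hold no such tract that begins within 5 bases of the start. Rplp0 has a C followed by 4 pyrimidines further into its window.

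A RefSeq promoter entry was found for 63 of the 83 members. The tract began within 5 bases of the start in 28 of them (44.4%), against 18.5% of all 27025 promoters in the table. It began at the annotated first base itself in 12 of 63 (19.0%), against 2.49% of all promoters. By subunit, 16 of 40 large subunit promoters and 12 of 23 small subunit promoters held the tract within 5 bases. The search used the strand of the gene only, and annotated starts can differ from those used in fat.

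Members were spread over 19 chromosomes, with 14 of the 83 on chromosome 7. A small nucleolar RNA gene, whose product guides the modification of ribosomal RNA, lay inside 29 members (34.9%), against 1.27% of 21951 protein-coding genes in GENCODE M21. The 29 members hold 56 such genes, among them 5 in Rpl4 and 4 in Rpl13a. Many members also have processed copies elsewhere in the genome. In 57 of 83 members, some 50-base stretch of the last 300 transcript bases, where 3′ reads fall, also occurs in a transcript of another annotated gene, and in 42 members more than 50% of these stretches do. Reads of such members are uncertain, because no source used here says how reads with several matches were handled. This limit holds also where it is not repeated below. Across members, mean level and the share of such stretches had a Spearman rho of 0.11 (83 genes, a description across genes). These include Rpl3l, Rpl10l and Rpl39l, with no shared stretches and at most 12 counts in a library. Levels also differ between genes for other reasons, so this value cannot show whether shared ends changed the counts.

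Libraries held 6583263 to 8746946 counts in KO Treg, 8350348 to 9617503 in KO vehicle and 5551967 to 12972655 in WT vehicle. The summed level of 10 adipocyte markers was 65588 to 91960 CPM in KO Treg, 63663 to 81318 CPM in KO vehicle and 79906 to 96207 CPM in WT vehicle, where CPM is counts scaled to a common effective library size (TMM). Animal numbers in the labels form 2 ranges, called here the lower and the higher number series; no label names them a batch. KO Treg 3, KO Treg 4, WT vehicle 3 and WT vehicle 4 are in the higher series, and KO vehicle has no animal in it. Placental transcripts stood out in KO Treg 2 (10 markers summing to 251 CPM) and KO vehicle 1 (92.4 CPM), against 12.7 to 31.9 CPM in the other 10 libraries. Markers of brown fat were highest in KO vehicle 2, KO vehicle 3 and WT vehicle 1.

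Ribosomal protein genes took 6.52% to 8.13% of all counts in a library. The share was 6.64%, 7.30%, 8.04% and 6.78% in KO Treg 1 to 4, and 6.66%, 7.24%, 6.52% and 7.22% in KO vehicle 1 to 4. In WT vehicle 1 to 4 it was 6.60%, 6.59%, 7.83% and 8.13%. The highest shares, above 7.5%, were those of WT vehicle 4, KO Treg 3 and WT vehicle 3, which are also the 3 libraries with the smallest totals. The 95% Wilson interval of a share spanned at most 0.045 percentage points, which covers counting error only.

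The summed level of the family was 72764 ± 7076 CPM in KO Treg, 67780 ± 3045 CPM in KO vehicle and 73478 ± 5837 CPM in WT vehicle (mean ± SD, n = 4 each). Single libraries were at 65289, 72937, 82231 and 70599 CPM in KO Treg, at 63487, 67998, 69096 and 70539 CPM in KO vehicle, and at 68836, 68043, 78106 and 78928 CPM in WT vehicle. All 3 groups overlapped. The 4 libraries of the higher number series were at 70599 to 82231 CPM and the 8 of the lower series at 63487 to 72937 CPM. Within the lower series alone, KO Treg was at 65289 and 72937 CPM, KO vehicle at 63487 to 70539 CPM and WT vehicle at 68836 and 68043 CPM. In whole tissue, fewer cells of a type and less RNA per cell cannot be told apart.

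**Figure D1:**
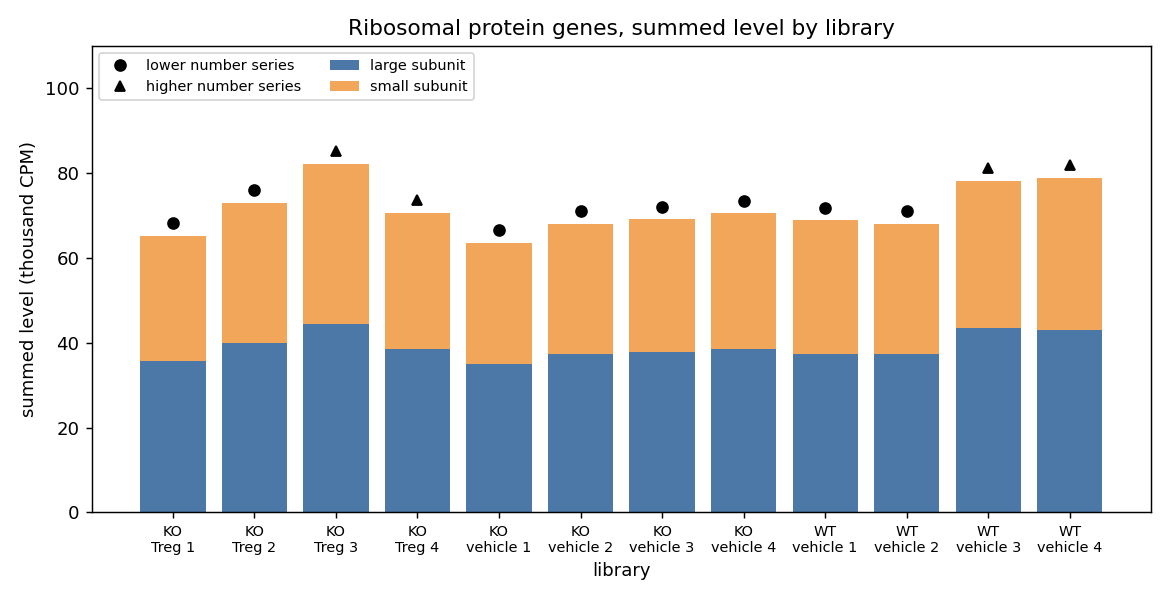
Summed level of ribosomal protein genes in each library, as CPM in units of 1000 (bars from 0), split into large (blue) and small (orange) subunit genes, with a circle above libraries of the lower number series and a triangle above those of the higher series. Bars run from 63487 CPM in KO vehicle 1 to 82231 CPM in KO Treg 3, the groups overlap, and the large subunit part exceeds the small in every library.

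Large and small subunit genes kept nearly the same proportion in every library. The ratio of their counts was 1.21, 1.21, 1.18 and 1.20 in KO Treg, 1.22, 1.21, 1.22 and 1.20 in KO vehicle, and 1.18, 1.21, 1.26 and 1.20 in WT vehicle. The large subunit sum was 39645 ± 3622 CPM in KO Treg, 37106 ± 1565 CPM in KO vehicle and 40280 ± 3495 CPM in WT vehicle. The small subunit sum was 33119 ± 3459 CPM in KO Treg, 30674 ± 1487 CPM in KO vehicle and 33199 ± 2422 CPM in WT vehicle (mean ± SD, n = 4 each). The group means of the ratio differed by less than its spread within WT vehicle, which includes the highest (1.26) and a library at the lowest value (1.18). The large subunit sum is larger over more genes: the median mean level was 559 CPM for a tested large subunit member and 882 CPM for a tested small subunit member.

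Members ranged widely in level, although their proteins are made in near-equal numbers. Each 3′ read stands for a transcript end, so CPM needs no length correction, but priming and shared sequence differ between genes. Of the 83 members, 75 averaged over 100 CPM and 26 over 1000 CPM, out of 124 genes over 1000 CPM in all. The median of member means was 699 CPM among the 79 that passed the filter on low counts, against 20.6 CPM over all 12175 genes tested.

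The highest member was Rplp1, an acidic protein of the stalk that recruits elongation factors (chromosome 9, 61913284 to 61914542). It stood at 3831, 4894, 5593 and 4321 CPM in KO Treg, at 3934, 4405, 4133 and 4551 CPM in KO vehicle, and at 4124, 4192, 5134 and 5129 CPM in WT vehicle. KO Treg held both the lowest and the highest library, so its range enclosed those of the other groups. Rplp1 was followed by Rps9 (mean 2982 CPM), Rps12 (2551 CPM), Rps14 (2322 CPM) and Rpl36 (2264 CPM).

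The stalk proteins differed in level although they bind one another. Rplp2, the partner of Rplp1, averaged 289 CPM. Rplp0, the scaffold that anchors both to the ribosome (chromosome 5, 115559467 to 115563727), averaged 705 ± 51.3 CPM in KO Treg, 673 ± 35.2 CPM in KO vehicle and 718 ± 77.0 CPM in WT vehicle. Rpl5 and Rpl11, which carry the smallest ribosomal RNA into the large subunit and bind the p53 regulator Mdm2, averaged 943 and 1361 CPM. Of these genes, Rplp1 and Rplp2 share 66.9% and 6.4% of their end stretches with other genes, and Rplp0, Rpl5 and Rpl11 share none, although exons of Rpl5 overlap Fam69a on the opposite strand.

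At the low end, 4 members failed the filter. Rpl3l, a paralog of Rpl3 found in striated muscle, had 0 to 6 counts, and Rpl10l and Rpl39l, paralogs known from testis, had 0 to 4 and 0 to 12 counts. Rps27, an ordinary member of the small subunit, had 3, 2, 8 and 9 counts in KO Treg, 2, 4, 8 and 9 counts in KO vehicle, and 4, 1, 1 and 7 counts in WT vehicle. All of its end stretches (100%) also occur in other annotated genes, among them Rps27rt, which was listed at 0 in every library.

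Rpl34, an ordinary member of the large subunit, was the lowest to pass, at 12 to 32 counts per library and a mean of 2.34 CPM. It shares 54.2% of its end stretches with other genes. It was at 2.65 ± 1.14 CPM in KO Treg and 2.0 ± 0.653 CPM in KO vehicle, with a log2 fold change of 0.38 ± 0.38 (SE), the largest of any member in that comparison and not past the threshold (edgeR adjusted p = 0.847). That value was 0.10 without KO Treg 3, 0.24 without KO vehicle 3 and 0.61 without KO vehicle 4. Rpl9, Rpl10 and Rpl36a, which like Rps27 share all of their end stretches, averaged 421, 1131 and 1003 CPM. The handling of reads with several matches is not known. Whether reads of Rps27 and Rpl34 were assigned elsewhere was not tested.

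Paralogs stood at different distances from their classical partners. Rpl22l1 averaged 48.2 ± 9.96 CPM in KO Treg, 50.9 ± 7.98 CPM in KO vehicle and 46.6 ± 11.4 CPM in WT vehicle, against 559 CPM over all libraries for Rpl22. Rpl7l1, a nucleolar relative of Rpl7, averaged 71.5 CPM, against 1188 CPM for Rpl7. Rps27l, a p53-induced relative of Rps27 and far above it in counts, was at 103, 101, 97.9 and 102 CPM in KO Treg, at 96.7, 86.1, 110 and 96.7 CPM in KO vehicle, and at 100, 79.2, 95.4 and 91.5 CPM in WT vehicle. Its groups overlapped, and the 4 KO Treg libraries lay within 97.9 to 103 CPM. Rpl36al, a near-identical relative of Rpl36a (mean 1003 CPM), averaged 386 ± 37.1 CPM in KO Treg, 377 ± 15.8 CPM in KO vehicle and 379 ± 14.6 CPM in WT vehicle. Reads of Rpl36al and Rpl22l1 are uncertain, since exons of Rpl36al overlap Gm49383 on the same strand and those of Rpl22l1 overlap Gm33051 on the opposite strand. Rpl36al and Rpl22l1 also share 70.1% and 63.3% of their end stretches with other genes.

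Most members were steady across the 12 animals. The coefficient of variation of CPM had a median of 11.6% over the 79 members tested, against 19.9% over all 12175 genes, and 75 of the 79 lay under that background median. Members are also counted more deeply than most genes, as their levels show, and the 2 sets were not matched on level. The least variable member was Rps3, which lines the entry of the messenger RNA (4.33%, chromosome 7, 99477896 to 99483738). It was at 1005, 1018, 1051 and 956 CPM in KO Treg, at 976, 968, 1014 and 959 CPM in KO vehicle, and at 1053, 952, 1057 and 1069 CPM in WT vehicle. Rpl36al (5.98%), Rpl23a (6.45%) and Rpl7 (6.63%) came next. They share 70.1%, 80.9% and 74.1% of their end stretches with other genes.

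Members often used as reference genes for PCR differed in steadiness. Rps18 varied by 7.51%, Rplp0 by 7.91%, Rpl32 by 13.6% and Rpl13a by 21.9%. Among other common reference genes, Ywhaz varied by 13.3%, Actb by 17.3%, Ppia by 21.6% and Gapdh by 44.6%. Reads of Rps18 and Rpl32 are uncertain, since their exons overlap Vps52 and Cand2 on the opposite strand. Rps18 and Rpl32 also share 78.5% and 26.7% of their end stretches with other genes. The most variable members were Rpl34 (36.5%, with few counts), Rpl4 (23.4%), Rpl7a (22.8%) and Rpl13a.

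**Figure D2:**
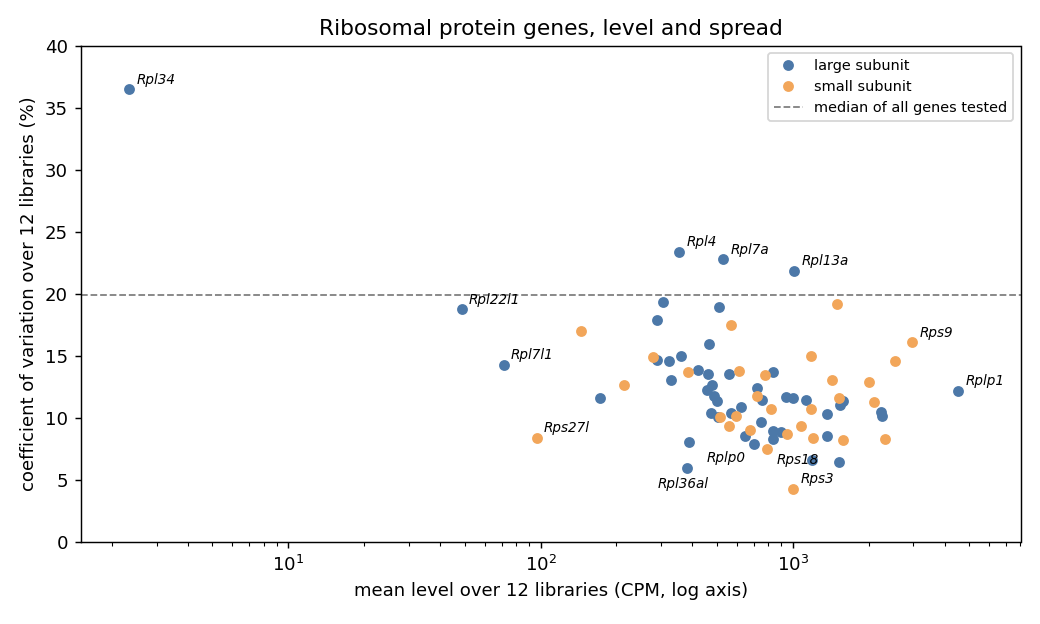
Mean level of each of the 79 tested members over 12 libraries (CPM, log axis) against its coefficient of variation (percent), with large subunit genes in blue and small subunit genes in orange. Points lie mostly under the dashed line, the median of 19.9% over all genes tested, and Rpl34, Rpl4, Rpl7a and Rpl13a lie above it.

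Rpl13a, which in human monocytes can leave the ribosome to silence inflammatory transcripts (chromosome 7, 45125558 to 45128761), is an example. It was at 687, 1220, 1358 and 845 CPM in KO Treg, at 663, 1269, 897 and 942 CPM in KO vehicle, and at 1132, 1126, 1097 and 940 CPM in WT vehicle. The spread was wide within KO Treg and within KO vehicle, and KO Treg 1 and KO vehicle 1 were the lowest of the 12 libraries. Rpl7a, another large subunit protein, ran the other way in several libraries. It was at 662, 321, 446 and 663 CPM in KO Treg, at 477, 385, 593 and 576 CPM in KO vehicle, and at 520, 650, 408 and 655 CPM in WT vehicle. Rpl7a shares 80.5% of its end stretches with other genes, and exons of both genes overlap small RNA genes on the same strand.

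Part of the family showed a similar contrast between libraries. To describe how the family's counts were divided among its members, a principal component analysis was run on log2 shares of the family total for the 78 members with at least 100 counts in every library, chosen after the data were seen. The first component held 49.6% of the variance and the second 17.9%. Correlation with the score on the first component was above 0.8 for 7 of the 78 members and below -0.8 for 13. Scores were -1.71, 0.99, 1.24 and -0.46 in KO Treg 1 to 4, -1.29, 1.17, -0.08 and 0.21 in KO vehicle 1 to 4, and 0.49, 0.41, -0.12 and -0.86 in WT vehicle 1 to 4. The extremes at both ends were knockout libraries of both treatments, so the component did not follow the groups. Each number series also held scores above and below 0.

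Members at the positive end of this component included Rpl13a, Rpl21, Rps19, Rplp2, Rpl4 and Rps12, and those at the negative end Rpl22l1, Rpl7a, Rpl9, Rpl27, Rps2, Rpl14 and Rpl32. Shares are parts of the same total, so a rise in some goes with a fall in others, and loadings of both signs follow by construction. Loadings were above 0 for 23 of 48 large subunit and 11 of 30 small subunit members, so each subunit had members on both sides of 0. Rps19, whose loss causes Diamond-Blackfan anaemia in humans, was at 1083, 1554, 2112 and 1477 CPM in KO Treg, at 958, 1563, 1544 and 1529 CPM in KO vehicle, and at 1658, 1576, 1358 and 1478 CPM in WT vehicle. Rpl27 was at 988, 677, 849 and 928 CPM in KO Treg, at 853, 652, 815 and 844 CPM in KO vehicle, and at 768, 753, 873 and 1036 CPM in WT vehicle. KO vehicle 1 was thus the lowest of its group for Rps19 and the highest for Rpl27. No source used here gives RNA quality, and its part in this component was not tested.

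**Figure D3:**
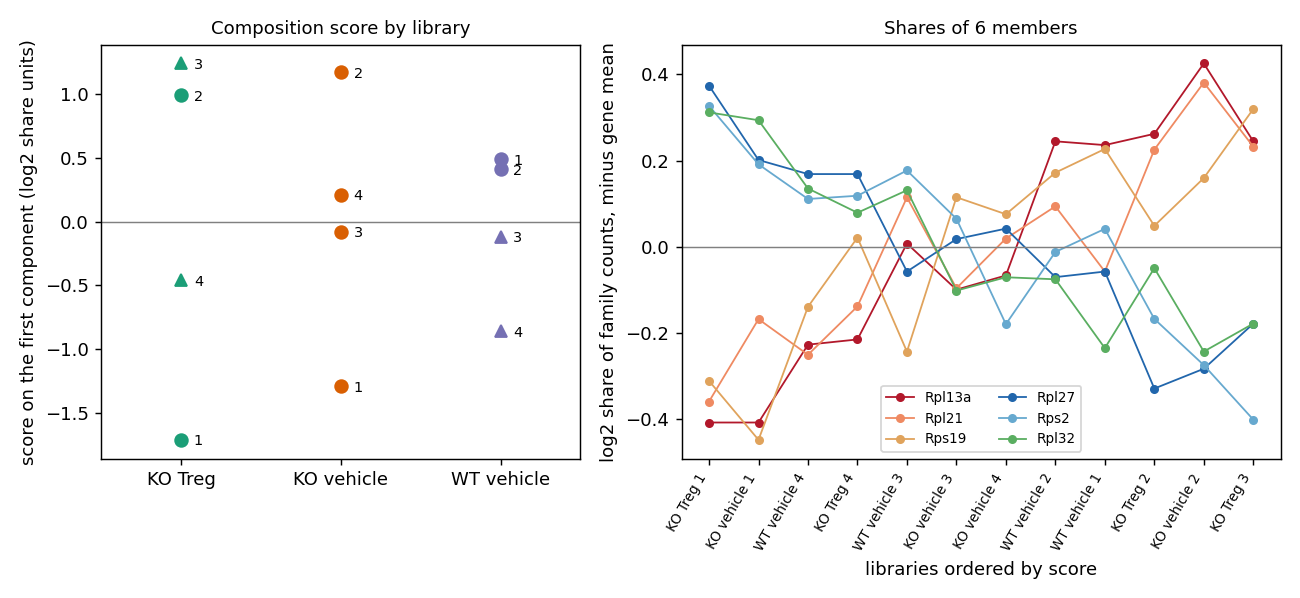
Left, score of each library on the first component of the family's composition (log2 share units), by group, with the replicate number beside each point, circles for the lower and triangles for the higher number series. Right, log2 share of the family's counts for 6 members, relative to each gene's mean, with libraries ordered by score. Rpl13a, Rpl21 and Rps19 tend upward and Rpl27, Rps2 and Rpl32 downward from KO Treg 1 to KO Treg 3. These 6 were taken from the ends of the component, so their trends are not separate evidence.

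KO vehicle was first set against WT vehicle, the comparison of the 2 genotypes without the treatment labelled Treg. No ribosomal protein gene passed the threshold: edgeR's quasi-likelihood test called 0 of 79 members at a Benjamini-Hochberg adjusted p under 0.05, against 0.279% of all genes tested. At an unadjusted p under 0.05 it had 1 member, against 12.4% of all genes, DESeq2 had 4 and limma voom had 2, and both called 0. Log2 fold changes were below 0 for 75 of 79 members (50.8% of all genes), from -0.34 to 0.13 with a median of -0.13, against -0.00 over all genes. The median was -0.13 in the large and in the small subunit, below 0 in 46 of 49 and 29 of 30 members. Members vary together, so these are not 79 separate observations. With counts scaled to the family's own sum the median was -0.016, and 34 members were above 0. That scaling removes by construction any change shared by all members.

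KO vehicle has no animal of the higher number series, so the series and this shift cannot be fully told apart. A fit with the series as a covariate takes the series difference from KO Treg and WT vehicle and assumes it for KO vehicle, here and below. With the series as a covariate, the median was -0.04 and 25 of 79 members were above 0, and within the lower series (2 WT vehicle and 4 KO vehicle libraries) it was -0.03, with 32 above 0. No member was called in either fit. In the marker lists of cell types 0 genes were called in this comparison, but several lists had nearly one sign. Adipocyte markers went both ways, with 6 of 10 above 0 and a median log2 fold change of 0.08, while their sum was 63663 to 81318 CPM in KO vehicle, against 79906 to 96207 CPM in WT vehicle. Of 8 smooth muscle markers, 8 were below 0 (median -1.80), with sums of 302 to 800 CPM in KO vehicle and 241 to 2065 CPM in WT vehicle. Below 0 were also 7 of 7 brown fat markers (median -0.76) and 5 of 6 skeletal muscle markers (median -1.65). So were 4 of 4 tested ovary and uterus markers (median -0.68), 7 of 10 stromal and progenitor markers (median -0.22) and 5 of 7 mesothelial markers (median -0.20). Above 0 were 8 of 9 macrophage markers (median 0.15) and 3 of 3 tested T cell markers (median 0.81). The part of these cells in the result was not tested.

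Rpl22, an RNA-binding protein of the large subunit that T cell development requires in mice, had the smallest p (chromosome 4, 152325742 to 152334071). It was at 532, 533, 449 and 473 CPM in KO vehicle, against 557, 508, 688 and 700 CPM in WT vehicle. The 2 WT vehicle libraries of the higher number series were the high ones, and WT vehicle 2 lay below KO vehicle 1 and 2. Means were 497 ± 42.3 CPM in KO vehicle and 613 ± 95.6 CPM in WT vehicle (SD, n = 4), with a log2 fold change of -0.30 ± 0.13 (SE, edgeR adjusted p = 0.347).

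Rpl12, a protein at the base of the stalk (chromosome 2, 32961559 to 32965345), was the single member whose groups did not overlap, where 2.33% of all genes were lower without overlap. It was at 414, 438, 429 and 429 CPM in KO vehicle, against 446, 459, 606 and 548 CPM in WT vehicle. The gap between the groups was 438 to 446 CPM, and again WT vehicle 3 and 4 were high. The log2 fold change was -0.27 ± 0.13 (SE, edgeR adjusted p = 0.401, n = 4). Exons of Rpl12 overlap Lrsam1 on the opposite strand, so its reads are uncertain.

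Rpl14, a large subunit protein, had the largest difference. It was at 318, 254, 242 and 259 CPM in KO vehicle, against 239, 293, 408 and 418 CPM in WT vehicle, with a log2 fold change of -0.34 ± 0.17 (SE, edgeR adjusted p = 0.433, n = 4), and of -0.22 without WT vehicle 4. WT vehicle 1 was the lowest of these 8 libraries, so the groups overlapped fully at the low end. Rpl3, which shapes the catalytic centre of the large subunit, was at 405, 435, 450 and 441 CPM in KO vehicle, against 446, 501, 536 and 558 CPM in WT vehicle (log2 fold change -0.24 ± 0.12, edgeR adjusted p = 0.444, n = 4). Its groups crossed by a single pair, KO vehicle 3 and WT vehicle 1. Rpl3 shares 76.5% of its end stretches with other genes.

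In the small subunit, Rps2, at the entry of the messenger RNA channel, had the smallest p. It was at 387, 300, 386 and 332 CPM in KO vehicle, against 378, 360, 471 and 455 CPM in WT vehicle (log2 fold change -0.24 ± 0.14, edgeR adjusted p = 0.522, n = 4). Reads of Rps2 are uncertain, since 78.1% of its end stretches occur in other genes and its exons overlap Snhg9 on the opposite strand. Rps23, a protein of the decoding centre, was at 220, 192, 188 and 190 CPM in KO vehicle, against 209, 183, 238 and 277 CPM in WT vehicle (log2 fold change -0.20 ± 0.13, edgeR adjusted p = 0.60, n = 4), and this value was -0.09 without WT vehicle 4. For both genes the groups overlapped. Of the paralogs, Rpl22l1 had a log2 fold change of 0.13 ± 0.18 and Rpl7l1 one of -0.24 ± 0.14 (SE, edgeR adjusted p = 0.837 and 0.549). The value of Rpl22l1 was 0.01 without KO vehicle 1, 0.03 without WT vehicle 1, 0.07 without WT vehicle 2 and 0.31 without WT vehicle 4.

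**Figure D4:**
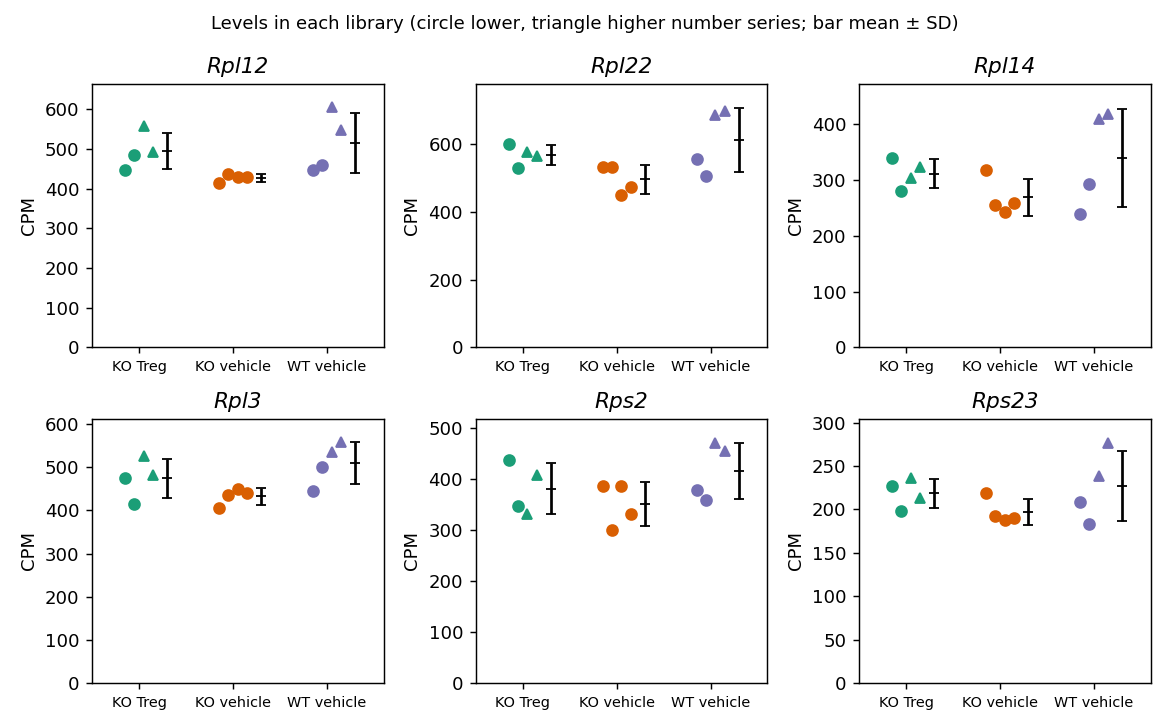
CPM of 6 members in each library by group, with circles for the lower and triangles for the higher number series and black bars for mean ± SD (n = 4). In WT vehicle both triangles stand above both circles for all 6 genes, and KO vehicle holds circles only. These 6 were picked for small p in KO vehicle against WT vehicle, and the share of all genes that separate this way is not given.

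The second comparison asked what differed in knockouts given the treatment labelled Treg relative to knockouts given vehicle. EdgeR called 0 of 79 members, against 0.00821% of all genes, and 0 had an unadjusted p under 0.05, against 8.77% of all genes. DESeq2 and limma voom called 0 members, and 0 had an unadjusted p under 0.05 by either. Log2 fold changes were above 0 for 75 of 79 members (49.7% of all genes), from -0.09 to 0.38 with a median of 0.09, against -0.00 over all genes. With counts scaled to the family's own sum, which removes by construction any change shared by all members, the median was -0.009. The median was 0.08 in the large and 0.11 in the small subunit. The members below 0 were Rpl10, Rpl17, Rpl22l1 and Rps6. This comparison shares the KO vehicle libraries with the first, so opposite signs in both do not count as separate evidence.

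With the number series as a covariate the median was 0.004, with 44 of 79 members above 0, and within the lower series (2 KO Treg and 4 KO vehicle libraries) it was 0.06, with 58 above 0. Several marker lists had nearly one sign here, with 0 genes called. Smooth muscle markers went the same way as the family, with 7 of 8 above 0 (median log2 fold change 0.95). Both the lowest and the highest sum of that list (1186 CPM) were in KO Treg, against 302 to 800 CPM in KO vehicle. Also above 0 were 4 of 4 tested ovary and uterus markers (median 0.52) and 6 of 7 mesothelial markers (median 0.25). Brown fat markers were below 0 in 7 of 7 (-4.43 to -0.60), with sums of 74.7 to 399 CPM in KO Treg and 81.1 to 2148 CPM in KO vehicle. Below 0 were also 4 of 4 tested erythroid markers (median -1.14) and 8 of 9 macrophage markers (median -0.19), the macrophage list with sums of 670 to 971 CPM in KO Treg, against 823 to 1100 CPM in KO vehicle. The 3 tested T cell markers were all below 0 (median -0.92, 1 with an unadjusted p under 0.05), and the T cell list summed to 4.62 to 10.3 CPM in KO Treg and 5.37 to 23.0 CPM in KO vehicle. The part of these cells in the family's shift was not tested.

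Rpl12 had the smallest p in this comparison, and its groups again did not overlap (2.01% of all genes were higher without overlap). It was at 448, 484, 558 and 492 CPM in KO Treg, against 414, 438, 429 and 429 CPM in KO vehicle, with a log2 fold change of 0.21 ± 0.13 (SE, edgeR adjusted p = 0.687, n = 4). The highest library, KO Treg 3, is of the higher number series. Rpl26, a large subunit protein known to bind p53 messenger RNA, was at 382, 535, 538 and 506 CPM in KO Treg, against 343, 502, 394 and 417 CPM in KO vehicle (log2 fold change 0.24 ± 0.16, edgeR adjusted p = 0.705, n = 4, and 0.37 without KO vehicle 2). Only KO vehicle 1 and the 3 highest KO Treg libraries lay outside the range of the opposite group. Rpl26 shares 64.5% of its end stretches with other genes.

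Rpl22 was at 602, 530, 577 and 566 CPM in KO Treg, against 532, 533, 449 and 473 CPM in KO vehicle (log2 fold change 0.20 ± 0.13, edgeR adjusted p = 0.726, n = 4). KO Treg 2 lay just below KO vehicle 1 and 2. Rps7, a small subunit protein that also binds Mdm2, had the smallest p of its subunit. It was at 528, 616, 724 and 599 CPM in KO Treg, against 524, 605, 512 and 562 CPM in KO vehicle, and the groups overlapped (log2 fold change 0.16 ± 0.12, edgeR adjusted p = 0.778, n = 4, and 0.10 without KO Treg 3).

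The third comparison set knockouts given the treatment labelled Treg against wild types given vehicle. EdgeR called 0 of 79 members, against 0.0% of all genes, and 0 had an unadjusted p under 0.05, against 2.87% of all genes. DESeq2 and limma voom called 0 members, and 0 had an unadjusted p under 0.05 by either. Log2 fold changes were above 0 for 25 members (49.0% of all genes) and below 0 for 54 (51.0% of all genes), from -0.20 to 0.16, with a median of -0.03 overall and in each subunit. Within the lower number series alone the median was 0.03, and within the higher series alone -0.08, so its sign was not stable. No member had groups without overlap, against 1.63% of all genes. Below 0 were 7 of 7 brown fat markers (median -2.58), 4 of 4 tested erythroid, 6 of 6 skeletal muscle and 8 of 8 smooth muscle markers, with 0 called.

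Rpl17, at the exit tunnel of the large subunit, was the member furthest below 0. It was at 284, 363, 376 and 349 CPM in KO Treg, against 329, 430, 419 and 399 CPM in WT vehicle (log2 fold change -0.20 ± 0.15, edgeR adjusted p = 1.0, n = 4, and -0.12 without KO Treg 1). Both groups covered 329 to 376 CPM. It shares 56.2% of its end stretches with other genes. Rps27l averaged 101 ± 2.29 CPM in KO Treg and 91.6 ± 8.98 CPM in WT vehicle (log2 fold change 0.14 ± 0.12, edgeR adjusted p = 1.0, n = 4, and 0.08 without WT vehicle 2), and WT vehicle 1 lay among the KO Treg libraries.

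**Figure D5:**
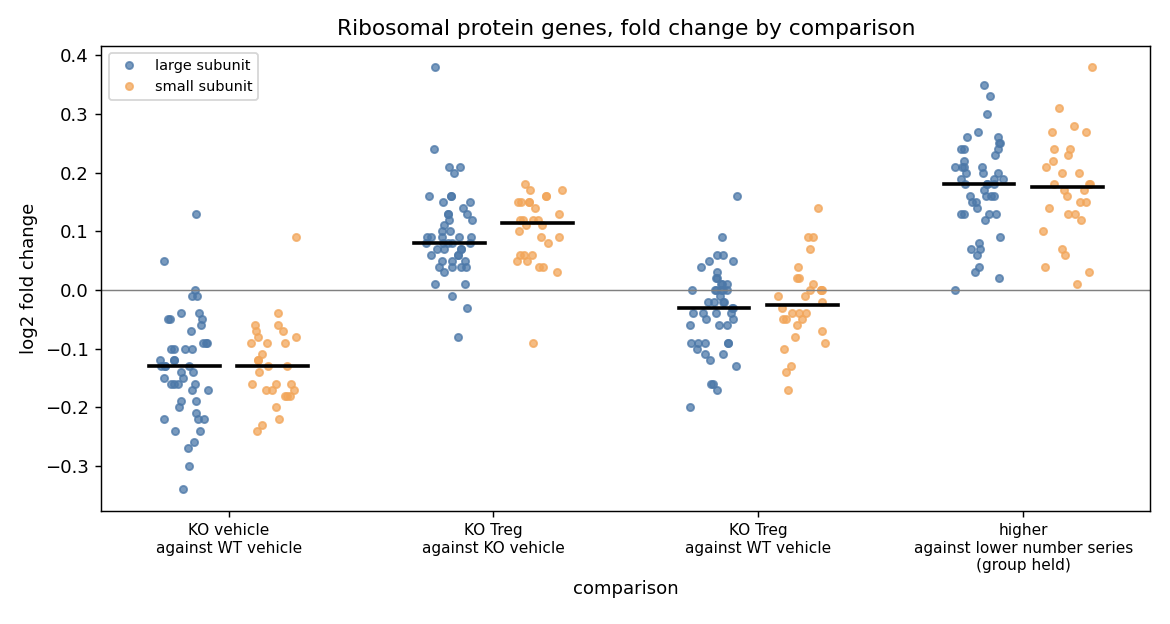
Log2 fold change of each of the 79 tested members (points) in the 3 comparisons and between the number series with group held, by subunit, with black lines at the medians. Points lie mostly below 0 for KO vehicle against WT vehicle, and mostly above 0 for KO Treg against KO vehicle and between the series. Scaling to the family's own sum removes by construction any shared change, and gave a median of -0.009 in KO Treg against KO vehicle.

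The number series was also compared directly, with the groups held in the same edgeR fit, a comparison added after the data were seen. Log2 fold changes of the higher against the lower series were above 0 for 78 of 79 members, against 51.4% of all genes, with a median of 0.18, against 0.01 over all genes. EdgeR called 0 members, against 0.0% of all genes, and 7 had an unadjusted p under 0.05, against 2.72% of all genes. Rps26, which binds the messenger RNA beside the exit site, had the smallest p. It was at 335 and 297 CPM in the higher and 237 and 290 CPM in the lower series of KO Treg, and at 359 and 314 CPM in the higher and 244 and 235 CPM in the lower series of WT vehicle. Within KO Treg the nearest libraries of the 2 series were at 297 and 290 CPM. KO vehicle, all of the lower series, was at 244 to 267 CPM. The log2 fold change between the series was 0.38 ± 0.12 (edgeR adjusted p = 1.0). Among the others of these 7, the log2 fold change was 0.33 for Rpl14 and 0.28 for Rps20. All 9 macrophage markers and all 4 tested erythroid markers were also above 0, and all 7 brown fat, all 6 tested skeletal muscle, 7 of 8 smooth muscle and all 3 tested T cell markers were below 0. The part of these cells, of library size and of the series itself in the family's level was not tested.

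Members moved together across libraries. The median Pearson correlation of log2 CPM over the 12 libraries was 0.47 for pairs of members, against -0.00 for pairs of all genes tested, and it was 0.47 among large subunit genes, 0.48 among small subunit genes and 0.48 across subunits. These values share libraries and scaling and are a description, and members and all genes were not matched on level. The libraries also span both number series, between which 78 of 79 members had a log2 fold change above 0. Rpl12 and Rpl13 (both 0.94), Rplp1 (0.92) and Rpl35a (0.91) followed the mean of the other members most closely. Rpl22l1 (-0.19), Rpl7a (-0.18), Rpl7l1 (-0.07) and Rps27l (-0.06) followed it least, and 3 of these 4 are paralogs. Rpl22l1, Rpl7l1 and Rps27l, at means of 48.6, 71.5 and 96.7 CPM, are also the lowest tested members after Rpl34. The paralog Rpl36al (mean 380.5 CPM) was at 0.35, above Rpl9 (0.12) and Rps2 (0.27).

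Fold changes were also set against the TOP-like tract within 5 bases of the start. The median log2 fold change was -0.13 in 27 tested members with a tract and -0.12 in 32 without in KO vehicle against WT vehicle. It was 0.11 with and 0.09 without a tract in KO Treg against KO vehicle, and -0.04 and -0.02 in KO Treg against WT vehicle. These differences between medians were not tested. In KO vehicle against WT vehicle, the log2 fold change was -0.27 for Rpl12, with a tract of 6 bases, and -0.30 for Rpl22, with none in the window shown above.

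Other genes that encode parts of the ribosome lay outside the rule. Fau, the ubiquitin-like fusion of a small subunit protein, Gnb2l1, the older symbol of the scaffold Rack1, and Rps3a1 averaged 1137, 751 and 2308 CPM over the 12 libraries, and edgeR called none of these 3 in any comparison. Rps27rt was listed at 0.

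Elongation factors and other messenger RNAs with a TOP tract, 16 genes, had 13 log2 fold changes below 0 in KO vehicle against WT vehicle (median -0.12) and 13 above 0 in KO Treg against KO vehicle (median 0.12), with 0 called. These comparisons share the KO vehicle libraries, all of the lower number series, and 15 of the 16 genes were above 0 in the higher against the lower series (median 0.13). Eef1a1, the main elongation factor, was at 2638 ± 305 CPM in KO Treg, 2355 ± 296 CPM in KO vehicle and 2586 ± 244 CPM in WT vehicle. Nap1l1, a histone chaperone of the same list, stood apart at 314 ± 70.1 CPM in KO vehicle and 185 ± 36.4 CPM in WT vehicle (log2 fold change 0.76 ± 0.21, edgeR adjusted p = 0.131, n = 4). Initiation factors were evenly divided in KO vehicle against WT vehicle, with 16 of 29 above 0 and a median of 0.01. Genes of ribosome biogenesis and RNA polymerase I had 29 of 49 below 0 with a median of -0.01, and mTOR pathway genes 13 of 24 above 0 with a median of 0.03. In KO Treg against KO vehicle, 31 of 49 biogenesis genes were below 0 (median -0.06), against 6122 of 12175 genes tested. There, 15 of 29 initiation factors were above 0 and 15 of 24 mTOR pathway genes below 0. In KO Treg against WT vehicle, 36 of 49 biogenesis genes were below 0 (median -0.08), against 51.0% of all genes. No gene of these lists was called in any comparison by edgeR. Overlaps of these genes with others were not examined.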

How the data were processed

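Per the labels' protocols, RNA was purified on columns with DNase treatment and made into libraries with a QuantSeq 3′ kit. The submitters' processing notes name BWA 0.7.12, SAMtools 1.3.1, TopHat2 2.1.1, HTSeq 0.6.1 and build mm10; no source used here gives the strand setting, the annotation or the handling of reads with several matches. The authors deposited whole-number read counts for gene symbols, 1 table per library, with no row that lacks a gene.

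Genes were kept by filterByExpr (12175 of 20632). After TMM scaling, 1 fit of all 3 groups was tested by robust quasi-likelihood in edgeR 4.0.16 (R 4.3.3), and p-values were adjusted over all genes (Benjamini-Hochberg, threshold 0.05). A standard error is the log2 fold change divided by the square root of F. A count of 3 corresponds to 0.241 to 0.539 CPM; intervals and floors cover counting error only. Replicate numbers were given in accession order and do not pair libraries. Nothing in the labels says more about the separateness of animals than their own numbers.

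Alternatives were RLE and upper quartile scaling, TMM without the family, no filter, DESeq2 1.42.0, limma voom 3.58.1 with quality weights, fits of 2 groups, the number series as covariate, the lower series alone, and leaving out each library or sets of libraries with placental or brown fat transcripts. Gene positions, overlaps and shared end stretches came from GENCODE M21 (GRCm38, the build mm10), and start sequences from RefSeq (GRCm38.p6). Fits were tested on simulated data. The members and lists were chosen with earlier results of these data known. The rule for named genes took, per comparison, the 5 members of smallest unadjusted p in each subunit, those of extreme level or variation, the paralogs, the members that failed the filter, common reference genes and, of related lists, up to 4 genes by p. Rpl5, Rpl9, Rpl10, Rpl11, Rpl13, Rpl21, Rpl27, Rpl27a, Rpl35a, Rpl36a, Rplp2, Rps19, Rps20 and Gapdh were added for their role or after their values were seen. Some genes that these rules name are not reported here.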

Additional observations from a re-analysis of the deposited data

Results flagged for a closer look

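In 120 groups of 4 libraries examined (37 members and 3 sums in 3 groups), 4 had a single library far from the other 3, and chance alone flags about 1 group in 20. Rps19 was at 958 CPM in KO vehicle 1, against 1529 to 1563 CPM in the other KO vehicle libraries. Rps23 was at 219.5 CPM in KO vehicle 1, against 188 to 192 CPM in the other KO vehicle libraries. Rps3 was at 952 CPM in WT vehicle 2, against 1053 to 1069 CPM in the other WT vehicle libraries. Rpl23a was at 1390.3 CPM in WT vehicle 2, against 1620.1 to 1659 CPM in the other WT vehicle libraries. Exons of Rpl23a overlap Tlcd1 on the opposite strand and 80.9% of its end stretches occur in other genes, so its reads are uncertain. KO vehicle 1 is also the KO vehicle library with the most placental transcripts (92.4 CPM) and the lowest composition score of its group (-1.29). KO Treg 2, with more placental transcripts (251 CPM), scored 0.99, and KO Treg 1, with 18.7 CPM, had the lowest score of all libraries (-1.71). The part of placental transcripts in these values was not tested.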

How the results depend on the processing

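No member was called in any of the 76 fits, which cover all 3 comparisons and all alternatives; the highest count at an unadjusted p under 0.05 was 8 (KO vehicle against WT vehicle, without WT vehicle 1). In KO vehicle against WT vehicle the median log2 fold change was -0.128; it was -0.029 in the lower number series alone and -0.016 scaled to the family's sum, and -0.19 to -0.092 when each library was left out. The log2 difference of the summed CPM was -0.114, and -0.015 in the lower series alone. In KO Treg against KO vehicle the median of 0.092 was 0.004 with the number series as covariate, -0.009 scaled to the family's sum, and 0.064 to 0.142 when each library was left out. The median of large minus small subunit genes there was -0.03, but 0.013 when the 3 libraries rich in brown fat markers (KO vehicle 2, KO vehicle 3 and WT vehicle 1) were left out, and -0.031 to 0.022 when each library was left out. In KO Treg against WT vehicle that difference was 0.001, and -0.043 to 0.009 when each library was left out; the family's median (-0.025) ran from -0.073 to 0.013. The log2 ratio of large to small subunit sums (-0.017) was 0.019 in the lower and -0.053 in the higher series alone. The cause of these shifts was not tested. The other alternatives for the medians, sums and ratios moved them by less than the spread between libraries. No paired analysis was possible because replicate numbers follow accession order. Without KO vehicle animals of the higher series, only KO Treg against WT vehicle has values within it. The fits scaled to the family's sum and of the higher series alone were added after the data were seen; the first removes by construction any change shared by all members. Depth limits Rps27, Rpl3l, Rpl10l, Rpl39l and Rpl34, with at most 32 counts in a library.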
